A study of Mus musculus with 192 samples.

Results

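The 10 genes described here mark the cells that build and maintain bone: Runx2, Sp7, Alpl, Ibsp, Bglap, Bglap2, Phex, Dmp1, Mepe and Sost. They were picked by gene symbol from the 54752 genes of the table, with earlier results of these data known, and each symbol stood for 1 gene. They were followed in temporal bone (TpB) and mandibular bone (MdB) of mice that had lived in space or on the ground.

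Bone is laid down by osteoblasts, which arise from mesenchymal progenitors under the transcription factors Runx2 and Sp7 (osterix). Osteoblasts secrete a collagen matrix together with the enzyme Alpl and the matrix proteins Ibsp and osteocalcin, and osteocalcin of the mouse is encoded by the neighboring genes Bglap and Bglap2. Some osteoblasts become embedded in the matrix as osteocytes, which make the mineral regulators Phex, Dmp1 and Mepe and the Wnt inhibitor sclerostin (Sost). Unloading of the skeleton is known to shift this balance, and mandibular bone also carries the teeth, whose odontoblasts and ameloblasts use several of the same mineralization genes.

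Male C57BL/6 mice labelled as 12 weeks old were either flown to the International Space Station (FL) or kept on the ground in the same housing units (GC). Both conditions held wild-type mice (WT) and Nrf2 knockout mice (Nrf2-KO, here KO), which lack a transcription factor of the antioxidant response, which gave the groups GC_WT, FL_WT, GC_KO and FL_KO. Flight mice were dissected in the United States shortly after their return and ground mice later in Japan, so flight, return, place and season cannot be told apart. A flight mouse and a ground mouse with the same number were different animals, and KO flight mouse 04, which had an intestinal hemorrhage, was left out.

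TpB was measured in 6 GC_WT, 6 FL_WT, 6 GC_KO and 5 FL_KO mice, and MdB in 3, 3, 3 and 2 mice. The expected read counts of a library came to 13.5 to 15.1 M in TpB and 14.3 to 14.7 M in MdB. TPM values, a transcript level scaled for gene length and depth, are given for each mouse, and fold changes are from edgeR on the counts. Expression of Nfe2l2, the gene that encodes Nrf2, was 55.5 to 95.1 TPM in WT and 18.3 to 36.1 TPM in KO mice in TpB, and 89.3 to 109 against 30.3 to 37.5 TPM in MdB, so the genotype labels held in every library and the KO libraries still carried reads of the gene. The TpB libraries carry numbers of 2 separate runs, called library sets here, and each group was split between both.

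The tissue labels were checked against marker genes, and the 2 bones differed widely. In MdB, 8 enamel and dentin markers summed to 110015 to 220062 TPM, compared with 0.56 to 129 TPM in TpB, so that tooth-forming tissue was a large part of each MdB library. In TpB, erythroid markers summed to 16324 to 113440 TPM and skeletal muscle markers to 434 to 36439 TPM, with marrow and muscle thus present in amounts that varied widely between mice. The 10 genes together took 3.58 to 6.66% of all TPM in MdB and 0.0622 to 0.211% in TpB. In such bulk samples, fewer cells of a type and less RNA per cell cannot be told apart.

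Bglap and Bglap2 lie 4.8 kb apart on the minus strand of chromosome 3, with Bglap3 a further 5.0 kb away. Their coding sequences, each spread over 4 exons, decide how well reads can be assigned to either gene. They are shown 5′ to 3′ from GRCm38, with the 4 differing bases in capitals. Bglap spans chr3:88383635-88384415 from its start codon to its stop codon and Bglap2 spans chr3:88377870-88378650.
Bglap: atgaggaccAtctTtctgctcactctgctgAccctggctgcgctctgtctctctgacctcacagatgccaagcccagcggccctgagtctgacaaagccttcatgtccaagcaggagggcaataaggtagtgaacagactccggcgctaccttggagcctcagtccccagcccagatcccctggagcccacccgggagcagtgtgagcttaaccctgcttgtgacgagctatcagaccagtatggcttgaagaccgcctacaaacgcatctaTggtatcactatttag
Bglap2: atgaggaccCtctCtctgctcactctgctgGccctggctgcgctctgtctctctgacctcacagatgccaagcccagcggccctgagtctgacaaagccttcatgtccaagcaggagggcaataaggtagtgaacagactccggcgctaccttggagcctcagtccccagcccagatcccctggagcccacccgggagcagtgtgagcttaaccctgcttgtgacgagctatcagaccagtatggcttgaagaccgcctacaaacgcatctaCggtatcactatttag
The 288 coding bases were 98.6% identical, and 3 of the 4 codons that differed encoded another amino acid. Of all positions at which a 76-base read can start in the transcript, 65.8% for Bglap and 60.6% for Bglap2 gave a read that the other transcript also holds. The division of reads between both genes was therefore an estimate, and their summed count was tested as well.

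The other members lie apart, except for Dmp1, Ibsp and Mepe, which are neighbors on the plus strand of chromosome 5 with gaps of 85.1 and 13.9 kb. Promoters are shown for Bglap and Mepe because these genes stood at opposite ends of the comparison between the bones. The 250 bases before the transcript start are given 5′ to 3′ on the strand of the gene, from RefSeq on GRCm38.p6, at chr3:88384467-88384716 for Bglap and chr5:104325079-104325328 for Mepe. Capitals mark the letters of the Runx motif, searched as ACCACA and its reverse complement TGTGGT.
Bglap: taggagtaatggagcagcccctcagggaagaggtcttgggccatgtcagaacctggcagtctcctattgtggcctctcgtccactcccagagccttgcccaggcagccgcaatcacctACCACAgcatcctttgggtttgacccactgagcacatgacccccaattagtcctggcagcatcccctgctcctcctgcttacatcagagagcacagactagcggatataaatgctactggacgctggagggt
Mepe: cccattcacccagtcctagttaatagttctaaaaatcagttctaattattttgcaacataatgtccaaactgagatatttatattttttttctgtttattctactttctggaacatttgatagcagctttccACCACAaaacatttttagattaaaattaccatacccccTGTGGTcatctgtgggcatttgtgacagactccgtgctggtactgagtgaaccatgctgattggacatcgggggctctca
The letters began 132 bases before the start in Bglap, and 118 and 80 bases before it in Mepe. Among the 8 members with a promoter in the RefSeq table, 4 had the motif in a window (Runx2, Bglap, Dmp1 and Mepe). This was 4 of the 10 windows of these members, and 14.0% of the 32851 promoter windows of all genes held it.

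Osteocalcin was the most abundant product of the 10 genes in both bones, and its level was lower in the flight mice in TpB. In GC_WT mice Bglap ranged from 619 to 1464 TPM with a median of 988. In FL_WT mice it ranged from 478 to 693 TPM with a median of 541. All 6 FL_WT mice lay below 5 of the 6 GC_WT mice, and the groups overlapped through the lowest GC_WT mouse. The mean was 1036 ± 374 TPM in GC_WT and 568 ± 93.8 TPM in FL_WT (SD, n = 6 each), and the log2 fold change on the counts was -1.06 (SE 0.27, 95% interval -1.62 to -0.50). Among the KO mice, Bglap ranged from 369 to 1132 TPM in GC_KO with a median of 980.2, and was 416, 507, 565, 611 and 917 TPM in the 5 FL_KO mice. The lowest of all these mice was a GC_KO mouse, the groups overlapped, and the log2 fold change was -0.62 (SE 0.28, 95% interval -1.21 to -0.02).

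Bglap2, the less abundant of the pair, showed the same direction. It ranged from 99.99 to 370.2 TPM in GC_WT (median 199) and from 67.4 to 165 TPM in FL_WT (median 100.3), a log2 fold change of -1.21 (SE 0.30). In GC_KO mice it ranged from 91.6 to 250.3 TPM (median 177), and the FL_KO mice had 57.6, 98.1, 124, 126 and 147 TPM, a log2 fold change of -0.69 (SE 0.31). When both genes were summed before the fit (Bglap+Bglap2), the log2 fold change was -1.09 (SE 0.26) in WT and -0.63 (SE 0.28) in KO mice, so the direction did not rest on how reads were divided between them.

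**Figure D1:**
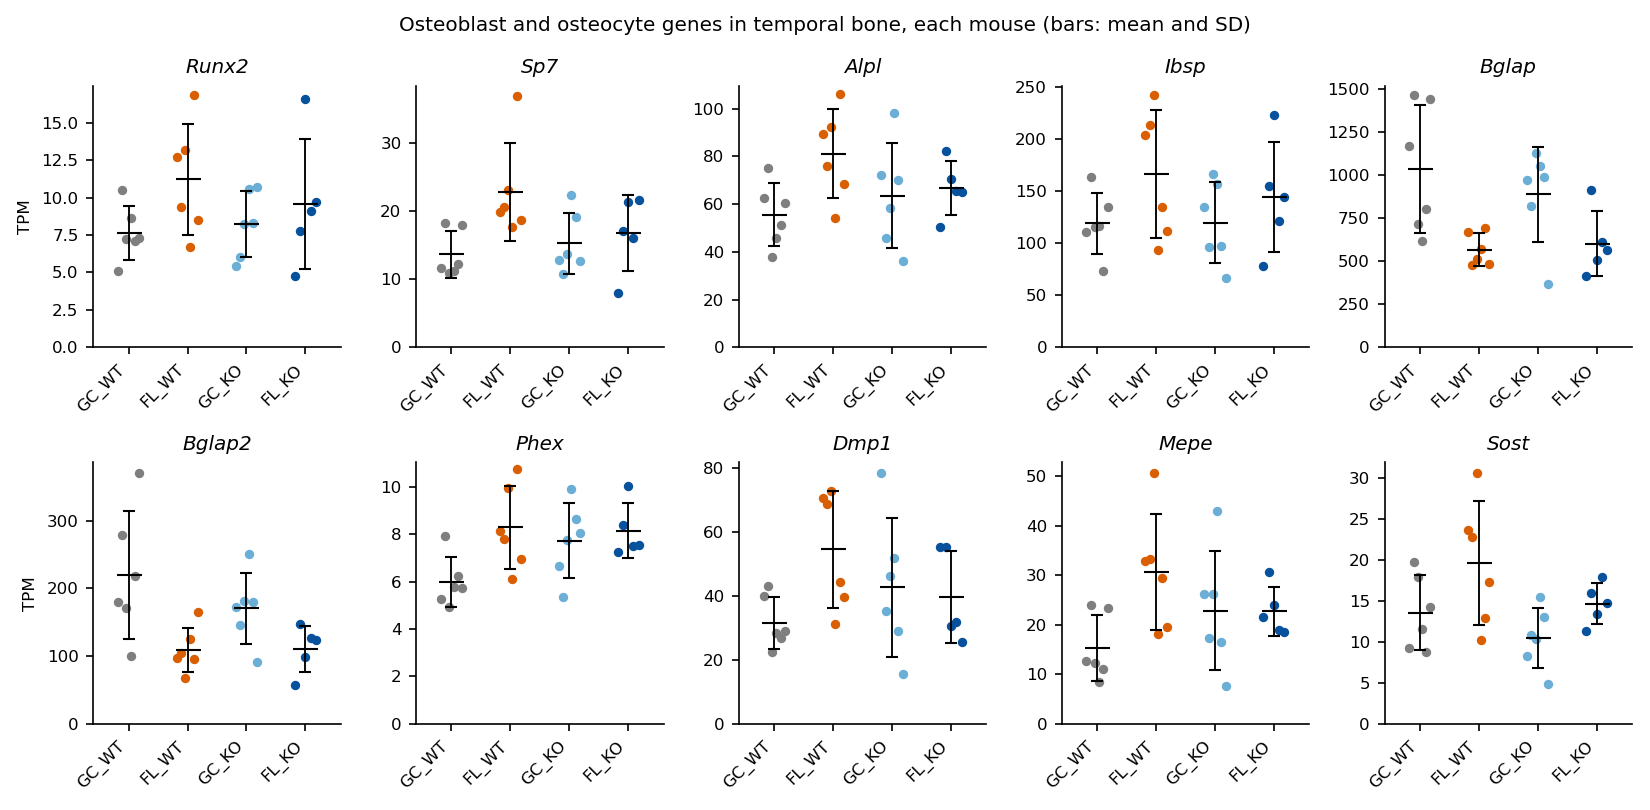
TPM of the 10 genes in temporal bone (vertical axis, linear, from 0) in the groups GC_WT, FL_WT, GC_KO and FL_KO (horizontal axis), with 1 point per mouse and bars for the mean and SD. Bglap and Bglap2 are the panels in which the flight groups lie toward the lower end of the ground groups, with FL_WT between 478 and 693 TPM for Bglap against 619 to 1464 TPM in GC_WT.

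None of these differences passed the test over all genes. By edgeR's quasi-likelihood test with Benjamini-Hochberg adjustment over 18184 genes, 0 genes (0%) were called in FL_WT against GC_WT, FL_KO against GC_KO and the flight effect averaged over the genotypes. At an unadjusted p under 0.05, 4 of the 10 members stood in FL_WT against GC_WT, where 3.71% of all genes did, 2 in FL_KO against GC_KO (2.67%) and 2 in the averaged effect (4.95%). The 2 of the latter comparisons were Bglap and Bglap2 in both, and the 4 in WT mice included this pair. The other transcript holds 65.8% of the Bglap and 60.6% of the Bglap2 read positions. The pair is therefore not 2 independent results in any count of members or calls here. Summed before the edgeR fit, both genes differed by -0.86 in the averaged effect (SE 0.19, unadjusted p = 0.00021, adjusted p = 0.568). Averaged over the genotypes, Bglap differed by -0.84 (SE 0.20, unadjusted p = 0.000342, adjusted p = 0.557) and Bglap2 by -0.95 (SE 0.22, unadjusted p = 0.000251, adjusted p = 0.557). DESeq2 on the same counts gave almost the same log2 fold changes, -0.84 and -0.96, and called both (adjusted p = 0.0467 for Bglap and 0.0282 for Bglap2), as 2 of 24 genes called among 33776 (0.0711%). DESeq2 called 7 genes in the WT and 5 in the KO comparison and limma on log2(TPM + 1) called 0 in all 3 comparisons, and no member was among those calls. The call of the osteocalcin genes thus depended on the tool.

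Within each library set, the flight mean of Bglap was below the ground mean in both genotypes. The differences in mean log2 CPM (read counts scaled to library size) were -1.21 and -0.76 in WT mice of the first and second set, and -0.69 and -0.48 in KO mice. For Bglap2 they were -1.46, -0.80, -0.90 and -0.58. These values rest on 2 or 3 mice per group and set. In WT mice of the first set Bglap was 478 to 669 TPM in flight and 714 to 1464 TPM on the ground. In WT mice of the second set it was 486 to 693 against 619 to 1445 TPM. In KO mice it was 416 to 917 against 821 to 1132 TPM in the first set, and 507 to 611 against 369 to 1051 TPM in the second. The ranges overlapped in each split except WT mice of the first set.

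The other 8 genes did not share the direction of osteocalcin in WT mice. In FL_WT against GC_WT all 8 had a log2 fold change above 0, from 0.29 (Phex) to 0.81 (Mepe), and the median over the 10 members was 0.34, compared with 0.01 over all genes. Mepe, an inhibitor of mineralization made by osteocytes, ranged from 8.54 to 23.9 TPM in GC_WT and from 18.1 to 50.6 TPM in FL_WT (medians 12.5 and 31.1), a log2 fold change of 0.81 (SE 0.36, unadjusted p = 0.0363). Sp7 ranged from 10.9 to 18.3 TPM in GC_WT and from 17.6 to 37.0 TPM in FL_WT (medians 11.9 and 20.3), a log2 fold change of 0.54 (SE 0.25, unadjusted p = 0.0453). By edgeR neither passed after adjustment, and both pairs of groups overlapped. In TPM the median of the tested genes with a mean of at least 5 TPM was itself 0.194 higher (log2) in FL_WT than in GC_WT. In FL_KO against GC_KO it was 0.104 higher. TPM ranges thus overstate the upward differences of single genes.

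The other 6 members gave the following levels in WT mice. The mineral regulator Dmp1 had 31.6 ± 8.04 TPM in GC_WT and 54.5 ± 18.3 TPM in FL_WT, and the enzyme Alpl 55.5 ± 13.3 and 81.1 ± 18.7 TPM (SD, n = 6 each). Runx2 had 7.64 ± 1.79 and 11.2 ± 3.72 TPM, Ibsp 119 ± 29.6 and 166 ± 61.2 TPM, Phex 5.98 ± 1.06 and 8.28 ± 1.75 TPM, and Sost 13.5 ± 4.55 and 19.6 ± 7.56 TPM. Each of these pairs overlapped and had an unadjusted p of at least 0.0632. In KO mice the 8 genes lay between -0.16 (Dmp1) and 0.41 (Sost), with intervals that covered 0. No member had TPM groups that did not overlap in WT mice, where 1.49% of all genes were higher and 0.0495% lower in every FL_WT mouse.

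**Figure D2:**
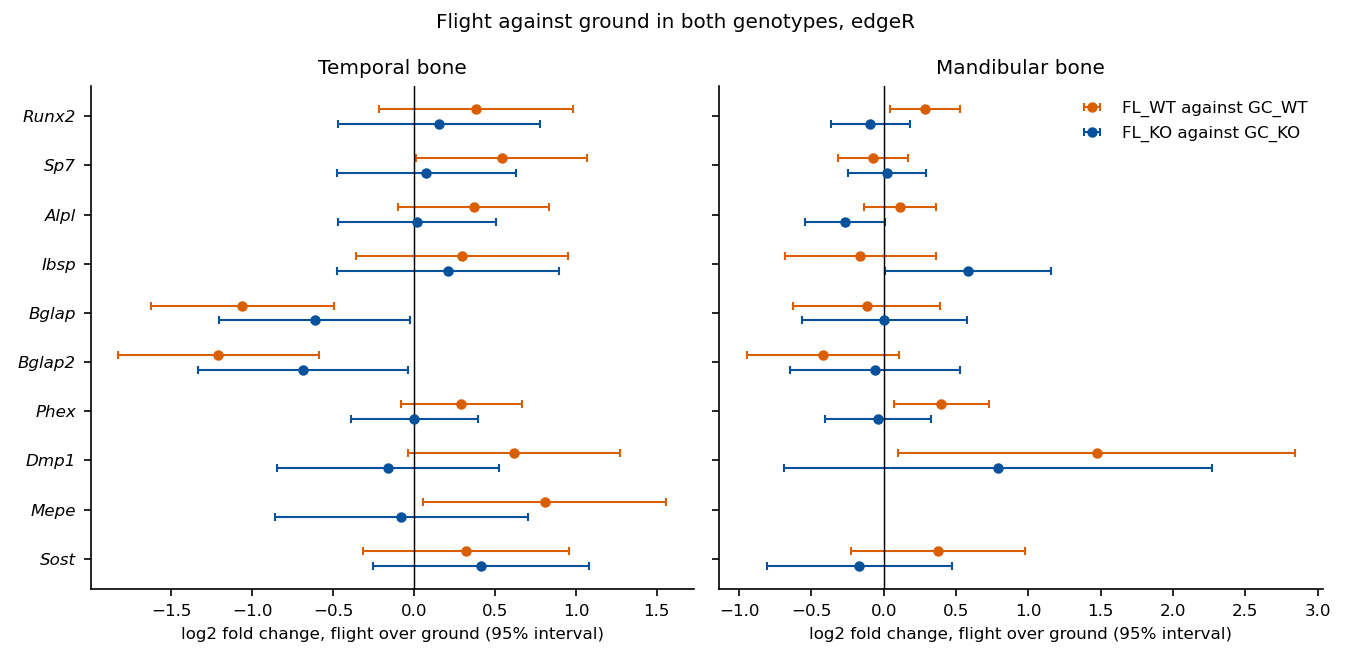
Log2 fold change of flight over ground (horizontal axis, edgeR, with 95% intervals) for the members (vertical axis) in WT and KO mice, in temporal bone on the left and mandibular bone on the right. In temporal bone Bglap and Bglap2 are the 2 genes whose intervals lie below 0 in both genotypes, and in mandibular bone their intervals cover 0. Mepe was not tested in mandibular bone.

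The ratio of osteocalcin to other osteoblast genes within each library was also compared. It was chosen after the values were seen and is given without a test. Bglap was 13.5 to 23.9 times the TPM of Alpl in GC_WT mice and 5.53 to 10.6 times in FL_WT mice, without overlap. In KO mice the ratio was 10.2 to 19.5 on the ground and 7.18 to 11.1 in flight, which overlapped. Relative to Sp7, Bglap was 55.2 to 101 times as high in GC_WT and 18.7 to 33.6 times in FL_WT, and 29.2 to 82.4 against 23.8 to 53.7 times in KO mice. Relative to Ibsp, Bglap was 5.33 to 10.99 times as high in GC_WT and 2.11 to 6.14 times in FL_WT, and relative to the collagen gene Col1a1 1.497 to 2.71 and 0.880 to 1.5003 times, both with overlap. The ratio of Bglap to Bglap2 overlapped among all 4 groups, from 2.95 to 7.58.

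**Figure D3:**
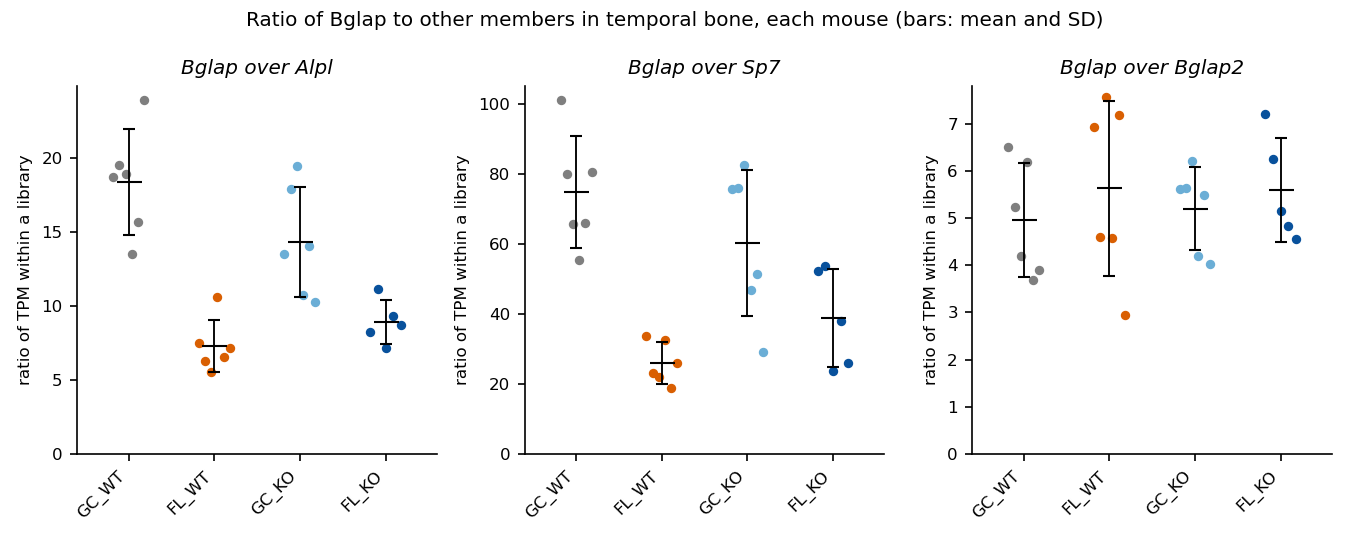
Ratio of the TPM of Bglap to that of Alpl, Sp7 and Bglap2 within each temporal bone library (vertical axes, linear, from 0) by group (horizontal axis), with 1 point per mouse and bars for the mean and SD. The ratio to Alpl is 13.5 to 23.9 in GC_WT and 5.53 to 10.6 in FL_WT, while the ratio to Bglap2 overlaps in all groups.

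Markers of other cells were summed in TpB beside these values. The 12 osteoclast markers, all detected, summed to 293 to 604 TPM in GC_WT (median 478) and 406 to 1090 TPM in FL_WT (median 820.4). The 6 adipocyte markers summed to 345 to 976 TPM in GC_WT and 137 to 605 TPM in FL_WT, and the 12 skeletal muscle markers to 10268 to 27949 and 4793 to 19656 TPM. By edgeR 0 genes of these lists were called, all 12 osteoclast genes had a log2 fold change above 0 (5 with an unadjusted p under 0.05), and the 6 adipocyte and 12 muscle genes all lay below 0 (2 and 1 with an unadjusted p under 0.05) in WT mice. In KO mice 0 genes of the adipocyte and muscle lists and 1 osteoclast gene had an unadjusted p under 0.05, and the neutrophil list had a median of 1.02 with 5 of its 12 genes higher at that p and 0 called. Their part in the osteocalcin values was not tested. With the genes of the erythroid, neutrophil and muscle lists taken out of the library sizes, Bglap differed by -1.05 in WT and -0.63 in KO mice. This took only the listed genes out of the scaling, and other transcripts of marrow and muscle stayed in.

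By edgeR no gene at all (0%) was called in TpB with flight in either genotype, so other genes of bone formation gave no call either. In FL_WT against GC_WT, 0 of 10 osteoblast regulators, 15 matrix genes, 12 genes of mineral handling, 13 osteocyte genes and 18 genes of Wnt and BMP signaling were called, with median log2 fold changes of 0.14, 0.01, 0.09, 0.25 and 0.17. The gene with the smallest edgeR p of each list, none past adjustment, was Dlx5, a homeodomain factor of osteoblasts (log2 fold change 0.51, SE 0.25), Serpinf1, a secreted matrix factor (-0.29, SE 0.20), Fgf23, the phosphate-lowering hormone of osteocytes (1.15, SE 0.43), the sclerostin-binding receptor Lrp4 (0.35, SE 0.15) and the secreted Wnt inhibitor Sfrp4 (0.64, SE 0.30). In FL_KO against GC_KO these genes were Foxc1 (-0.21, SE 0.25), Bglap3 (-0.86, SE 0.55), Ank (-0.15, SE 0.08), Cd44 (0.32, SE 0.34) and the BMP receptor Bmpr1a (-0.21, SE 0.09). Bglap3, the third gene of the osteocalcin cluster, had a level of 1.69 to 20.7 TPM over the TpB libraries.

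Loss of Nrf2 was not accompanied by a called change of any member in TpB. In GC_KO against GC_WT 36 genes (0.198%) and in FL_KO against FL_WT 37 genes (0.203%) were called by edgeR, and 66 (0.363%) with the genotype effect averaged over flight and ground, and the members were not among them. DESeq2 called 65, 53 and 106 genes and limma 28, 27 and 42 in these comparisons, again without a member. At an unadjusted p under 0.05, 0 members stood in any of the 3, where 2.9%, 2.3% and 3.16% of all genes did. Fold changes of the members lay between -0.48 (Sost) and 0.50 (Mepe) on the ground and between -0.43 (Dmp1) and 0.15 (Bglap) in flight. Sost had 13.5 ± 4.55 TPM in GC_WT and 10.4 ± 3.70 TPM in GC_KO (SD, n = 6 each). Testing whether the response to flight depended on genotype gave 0 called genes (0%) by edgeR, 2 by DESeq2 and 0 by limma, with 0 members among the 1.77% of all genes at an unadjusted p under 0.05. For Bglap that difference was 0.45 (SE 0.39, 95% interval -0.36 to 1.25), so the smaller flight value in KO mice was not shown to differ from that in WT mice.

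Library set moved 1 member in TpB. Dmp1 was 0.77 lower on the log2 scale in the second set (SE 0.16, edgeR adjusted p = 0.0274), as 1 of 92 genes called for the set (0.506%). In WT mice Dmp1 had 68.8 to 72.9 TPM in flight and 22.4 to 43.0 TPM on the ground in the first set, and 31.1 to 44.4 against 26.8 to 29.0 TPM in the second. Each group held 3 mice of either set, except FL_KO with 2 and 3, and with the set as a covariate Bglap differed by -1.05 in WT mice. With the mouse number as a block, where each number falls within a single set, Dmp1 differed by 0.56 in WT mice (SE 0.21). Its edgeR unadjusted p was 0.0194 and its adjusted p 0.9998. In KO mice Dmp1 differed by 0.005 (SE 0.23).

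The members also varied together between mice of the same group in TpB. Over 23 libraries, deviations of log2 CPM from the group means correlated with a median Pearson's r of 0.567 over the 45 pairs of members, and 30 pairs exceeded 0.5. Runx2 and Phex gave the highest value (0.855), followed by Alpl and Mepe (0.829). Runx2 and Dmp1 gave the lowest (-0.089). Bglap followed Alpl (0.779), Mepe (0.759) and Bglap2 (0.748), and the last value also depends on how shared reads were divided between both genes. These libraries share a tissue in which marrow and muscle varied, so the correlations describe the samples and carry no test. Ibsp, a sialoprotein of mineralizing matrix, also went with the summed osteoclast markers (r = 0.893).

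Outside the members, the genes whose levels most resembled the mean standardized level of the 10 over the 23 TpB libraries included Emilin1 (r = 0.878), Fap (0.871), Wisp1 (0.866) and Vdr (0.861), of 13180 genes compared. Emilin1 and Wisp1 encode extracellular matrix proteins, Fap a surface protease of stromal cells and Vdr the vitamin D receptor. In MdB the corresponding genes over 11 libraries included Pcsk5 (0.952), Parm1 (0.933), Peg13 (0.925) and Adamts2 (0.922), of 11060 compared, with 8 members in the mean.

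In MdB no difference of the osteocalcin genes with flight was detected. Bglap was 34192, 43140 and 48854 TPM in GC_WT and 31237, 42876 and 46333 TPM in FL_WT mice. It was 42019.8, 48039.8 and 53315 TPM in GC_KO and 39066 and 58956 TPM in FL_KO mice. The groups overlapped in both genotypes, and the log2 fold change was -0.12 (95% interval -0.63 to 0.39) in WT and 0.01 (-0.56 to 0.57) in KO mice. Bglap2 had 4765 ± 1003 TPM in GC_WT and 3679 ± 904 TPM in FL_WT (SD, n = 3 each), a log2 fold change of -0.42 (95% interval -0.95 to 0.11). The Bglap interval of WT mice reached down to -0.63 and so did not hold the -1.06 found in TpB. It did overlap the 95% interval of that TpB value, given above. Whether the bones differed in their response was not tested.

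Dmp1 and Phex, the mineral regulators, had higher values in FL_WT than in GC_WT in MdB. Dmp1 was 36.8, 47.2 and 104 TPM in GC_WT and 157, 182 and 215 TPM in FL_WT mice. It spread more widely in KO mice, with 45.8, 58.1 and 194 TPM in GC_KO and 64.9 and 304 TPM in FL_KO. Its log2 fold change was 1.47 (SE 0.63, unadjusted p = 0.0378, edgeR adjusted p = 0.5445) in WT mice and 1.13 (SE 0.46, adjusted p = 0.719) averaged over the genotypes. The averaged value rested on FL_KO mouse 01, without which Dmp1 differed by 0.41 (adjusted p = 0.959 by edgeR). Phex was 200.4, 266 and 277 TPM in GC_WT and 343, 344 and 344 TPM in FL_WT mice, a log2 fold change of 0.40 (SE 0.15, unadjusted p = 0.0211). Both genes were higher in every FL_WT mouse, as were 9.93% of all genes.

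**Figure D4:**
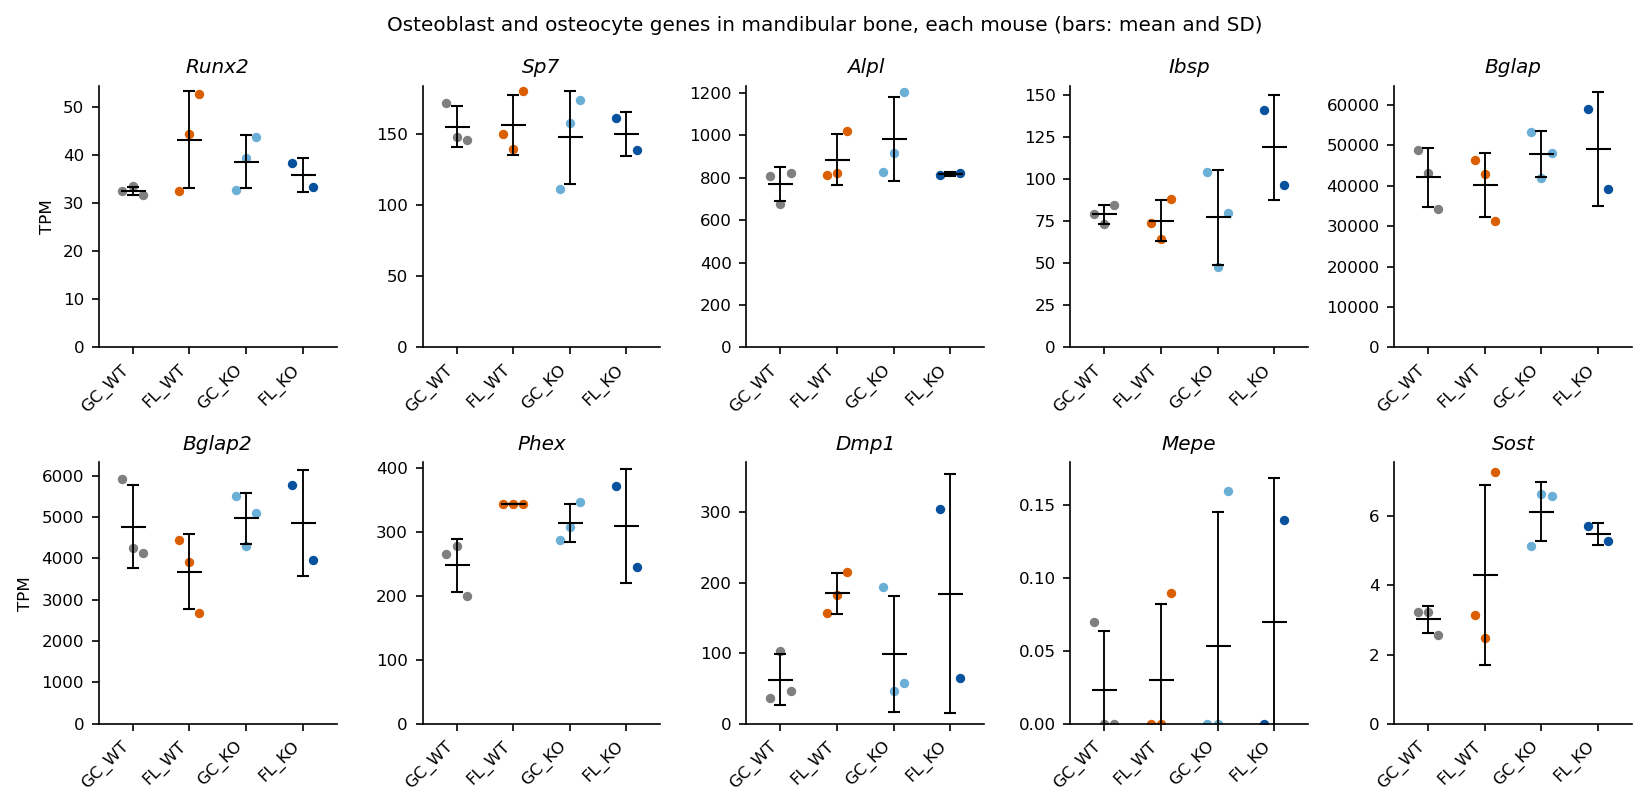
TPM of the 10 genes in mandibular bone (vertical axis, linear, from 0) in the 4 groups (horizontal axis), with 1 point per mouse and bars for the mean and SD. Dmp1 and Phex are higher in each of the 3 FL_WT mice than in each of the 3 GC_WT mice, Sost is higher in GC_KO than in GC_WT, and Mepe stays at or below 0.16 TPM in all libraries.

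Runx2 was 31.8, 32.5 and 33.5 TPM in GC_WT and 32.5, 44.4 and 52.6 TPM in FL_WT mice (log2 fold change 0.28, SE 0.11, unadjusted p = 0.0255). Ibsp was 47.6, 80.0 and 104 TPM in GC_KO and 96.7 and 141 TPM in FL_KO mice (log2 fold change 0.58, SE 0.26, unadjusted p = 0.0476). Alpl was lower in both FL_KO mice, at 812 and 824 TPM, than in the GC_KO mice at 826, 918 and 1206 TPM, as were 4.87% of all genes. No gene (0%) was called by edgeR in the flight comparisons of MdB, nor for the averaged flight effect or the difference between the genotypes' responses. Among the 9 members tested, 3 stood at an unadjusted p under 0.05 in WT mice, where 8.68% of the 16361 genes did, 1 in KO mice (3.48%), 1 in the averaged effect (6.64%) and 2 in the difference of responses (5.05%). The 2 last were Runx2 (-0.38, SE 0.17) and Alpl (-0.38, SE 0.17). DESeq2 called 60, 7, 20 and 7 genes and limma 2, 2, 1 and 1 in the same comparisons, with no member among them.

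Summed skeletal muscle and erythroid markers are given beside these values of MdB. The 12 muscle markers summed to 638 to 1000 TPM in GC_WT and 126 to 406 TPM in FL_WT, and the 12 erythroid markers to 877 to 1548 and 308 to 490 TPM, without overlap in either case. In KO mice the muscle sums were 558 to 1438 TPM in GC_KO and 142 to 778 TPM in FL_KO, while the erythroid sums went the other way, from 488 to 732 TPM in GC_KO to 660 to 1305 TPM in FL_KO. All 12 muscle markers were above 0 in both groups, while 7 of the 12 erythroid markers were under 1 TPM in FL_WT, 1 of them at 0. By edgeR 10 of 12 muscle genes and 6 of the 7 erythroid genes tested in WT mice had an unadjusted p under 0.05 and 0 were called. Their part in the values of Dmp1 and Phex was not tested. In the other lists of bone genes, 0 of 10 regulators, 15 matrix genes, 11 genes of mineral handling, 12 osteocyte genes and 17 genes of Wnt and BMP signaling were called by edgeR in FL_WT against GC_WT. The collagen gene Col1a2 had the smallest p of the matrix list (0.61, SE 0.18, adjusted p = 0.413), and Msx2 (-0.18), Enpp1 (0.31), Pdpn (-0.20) and Nog (-0.32) those of the other lists.

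Sost, the sclerostin gene, had the smallest p of the members for genotype in MdB on the ground and averaged over flight and ground. It was 2.57, 3.23 and 3.24 TPM in GC_WT and 5.14, 6.59 and 6.65 TPM in GC_KO mice, without overlap. In flight it was 2.49, 3.15 and 7.27 TPM in FL_WT and 5.27 and 5.71 TPM in FL_KO mice, where 1 FL_WT mouse (mouse 06) exceeded both KO mice. On the ground the log2 fold change was 1.03 (SE 0.27, unadjusted p = 0.00256, edgeR adjusted p = 0.407), and averaged over flight and ground 0.76 (SE 0.20, adjusted p = 0.294). Without FL_WT mouse 06 Sost passed the test in both comparisons, with 1.03 (adjusted p = 0.0364) and 0.99 (adjusted p = 0.00736). Mouse 06 is not part of the ground comparison, whose fold change stayed at 1.03. It enters that test through the spread, which the fit estimates over all 4 groups. In TpB the same comparison on the ground gave -0.48 (SE 0.31), the opposite sign.

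Alpl and Phex were also higher in every GC_KO than in every GC_WT mouse in MdB, with log2 fold changes of 0.36 (SE 0.11) and 0.36 (SE 0.15), as were 2.54% of all genes. Ibsp was higher in both FL_KO mice than in the 3 FL_WT mice, at 96.7 and 141 against 64.3, 73.8 and 88.0 TPM (log2 fold change 0.74, SE 0.26, unadjusted p = 0.0156), as were 5.85% of all genes. By edgeR 40 genes (0.244%) were called in GC_KO against GC_WT, 34 (0.208%) in FL_KO against FL_WT and 84 (0.513%) for the averaged genotype effect, and no member was among them. At an unadjusted p under 0.05 the members numbered 3, 1 and 1 of 9, compared with 5.07%, 5.4% and 5.17% of all genes. DESeq2 called 67, 82 and 128 genes in these comparisons and limma 25, 30 and 50, again without a member. On the ground, Tnfrsf11b, the gene of the osteoclast inhibitor osteoprotegerin, was the osteocyte-list gene with the smallest p (0.64, SE 0.15, edgeR adjusted p = 0.221).

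Members did not vary together in MdB as they did in TpB. Over 11 libraries the 36 pairs of the 9 members gave a median r of -0.032, and 5 pairs exceeded 0.5. Bglap and Bglap2 (0.962), Bglap and Phex (0.779) and Ibsp and Dmp1 (0.709) gave the highest values, and Bglap2 and Sost the lowest (-0.695). The value of Bglap and Bglap2 also depends on how shared reads were divided between them.

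Most members differed widely in level between the bones. The comparison used 6 ground and 5 flight mice with both bones sequenced. In ground mice 7 members were called higher and 2 lower in MdB, where 32.4% of the 16619 genes were higher and 36.9% lower by edgeR. In flight mice the same counts were 7 and 2, compared with 31.2% and 36% of 16908 genes. Bglap was 59.2-fold higher in MdB of ground mice (log2 5.89, SE 0.27) and 88.4-fold higher in flight mice (log2 6.47, SE 0.36), at 31237 to 58956 TPM in MdB and 369 to 1464 TPM in TpB over all mice. Bglap2 was 35.9-fold and 52.7-fold higher.

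The gene Phex, whose protein is a membrane endopeptidase that lowers Fgf23, was 55.2-fold higher in MdB of ground mice (log2 5.79, SE 0.17) and 48.3-fold in flight mice. It had 303 ± 52.7 TPM in MdB (SD, n = 11) and 7.50 ± 1.63 TPM in TpB (SD, n = 23). Alpl was 19.0-fold, Sp7 15.2-fold and Runx2 6.27-fold higher in ground mice, and 13.3-fold, 10.6-fold and 5.20-fold higher in flight mice. All of these had an edgeR adjusted p of at most 6.24e-06 in a fit that did not include the mouse. With the mouse as a block, the largest of these adjusted p values was 0.00013 (Runx2 in flight mice).

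**Figure D5:**
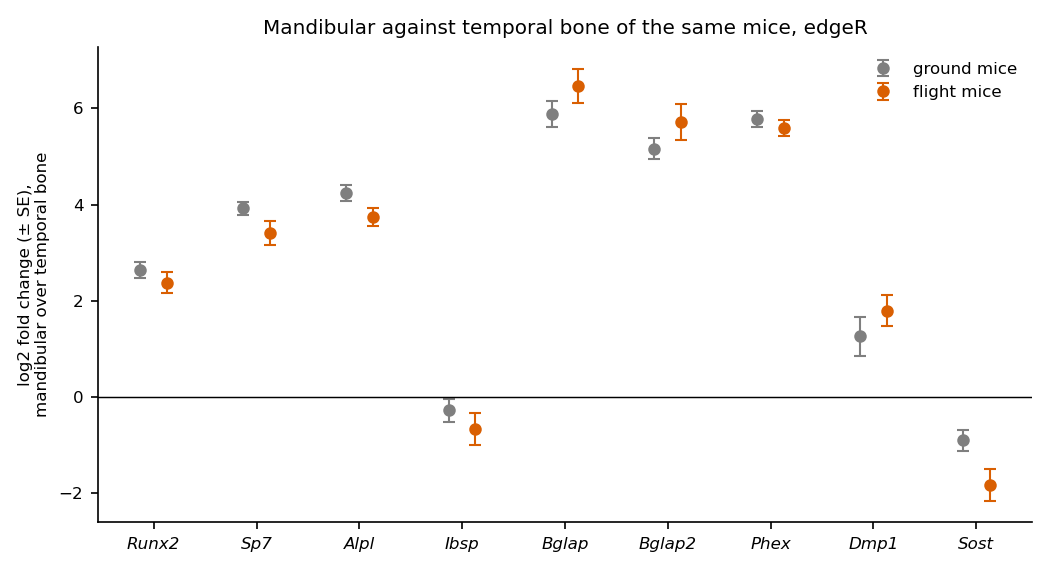
Log2 fold change of mandibular over temporal bone (vertical axis, edgeR, bars for the SE) for 9 members (horizontal axis) in ground and flight mice. Bglap, Bglap2 and Phex lie between 5.17 and 6.47, Ibsp lies near 0, and Sost is below 0. Mepe is not drawn because its mandibular counts were 0 to 2 per library.

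Dmp1, Sost and Ibsp lay closer together in the 2 bones. Dmp1 was 2.41-fold higher in MdB of ground mice (log2 1.27, SE 0.40, edgeR adjusted p = 0.0148) and 3.47-fold higher in flight mice (log2 1.80, SE 0.32). In ground mice the call for Dmp1 was lost with limma on log2(TPM + 1) (0.75, adjusted p = 0.0798) and without GC_WT mouse 07 (1.02, adjusted p = 0.0699). Sost was lower in MdB, by 0.90 (SE 0.22) in ground and 1.82 (SE 0.33) in flight mice on the log2 scale, at 4.66 ± 1.78 TPM compared with 14.5 ± 5.80 TPM in TpB. Ibsp was the member whose bones were closest, at 84.8 ± 24.1 TPM in MdB and 137 ± 48.2 TPM in TpB, and did not pass in ground (-0.28, adjusted p = 0.33) or flight mice (-0.66, adjusted p = 0.103). With limma on log2(TPM + 1) Ibsp passed in both (-0.56, adjusted p = 0.0296, and -0.89, adjusted p = 0.0267), and in flight mice also without FL_KO mouse 01 (-1.07, adjusted p = 0.000138).

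Mepe was nearly absent from MdB. Its count was 0 in 7 of the 11 MdB libraries and 1 or 2 in the other 4, which came to 3 reads in ground and 3 reads in flight mice, whereas the TpB libraries of the same mice held 101 to 655 reads each. Relative to all counted reads, Mepe was 432 times as high in TpB as in MdB in ground mice (95% interval 148 to 2100.0, from an exact Poisson interval on the MdB reads) and 730.0 times in flight mice (250 to 3540.0). These intervals cover counting error only. In TpB the gene was detected in all 23 libraries, at 7.64 to 50.6 TPM.

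The other bone genes differed between the bones in both directions as well. In ground mice 8 of 10 osteoblast regulators were higher and 1 lower in MdB, and 12 and 2 of 15 matrix genes, 7 and 4 of 12 genes of mineral handling, 9 and 2 of 12 osteocyte genes and 10 and 4 of 18 genes of Wnt and BMP signaling were. The homeodomain factors Msx2 (log2 6.71, SE 0.30) and Dlx3 (6.01, SE 0.18) were among the regulators with the smallest p. Those of the matrix list were Fkbp10, P3h1 and Sparc (3.12 to 3.78), of mineral handling Slc20a2, Fgfr1 and Panx3 (2.49 to 5.19), of the osteocyte list Mmp14, Cd44 and Irx5 (3.07 to 3.44), and of the signaling list Wnt10b, Bmp2 and Bmp4 (2.92 to 4.97). The collagen gene Col1a1 was higher in MdB by 5.55 (SE 0.37), close to Bglap, and the matrix gene Spp1 (osteopontin) was lower by 5.62 (log2 -5.62, SE 0.41). In flight mice these were 5.32 and -5.09.

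The levels of a member in both bones were correlated over the 11 mice with both bones, pooled from the 4 groups. Group means were not taken out, so these values mix differences between groups with differences between animals. Dmp1 gave Pearson's r = 0.703 (permutation p = 0.0199, adjusted over the 10 members 0.199) and Spearman's rho = 0.691 (permutation p = 0.0222, adjusted 0.222) between log2(TPM + 1) in TpB and MdB. Without the 2 mice farthest from the median r was 0.817. Within the first library set, with 9 of the mice, it was the same 0.817, so these are not 2 separate checks. On log2 CPM over all 11 mice Dmp1 gave r = 0.555 (permutation p = 0.0804, adjusted 0.724). None of the 10 members passed after adjustment. On log2(TPM + 1), Bglap gave r = 0.083 and Sp7 r = 0.0046.

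Levels in the other tissues gave a reference for the members. Sp7, Ibsp, Bglap2, Phex, Mepe and Sost were highest in 1 of the 2 bones, and their mean was below 2 TPM in each of the 7 soft tissues. Alpl was 263 ± 29.5 TPM in kidney (SD, n = 12), above TpB at 66.7 ± 18.6 TPM (n = 23) without overlap and below MdB at 868 ± 139.7 TPM. Runx2 was 9.59 ± 1.44 TPM in spleen (n = 23), which overlapped TpB at 9.14 ± 3.24 TPM, and 2.41 ± 0.63 TPM in cerebrum. Dmp1 had 4.97 ± 0.76 TPM and Sp7 1.43 ± 0.41 TPM in cerebrum, and both were below 1 TPM in the remaining soft tissues. Thymus libraries were made by depletion of ribosomal RNA rather than poly(A) selection, and held at most 3.34 TPM of any member.

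Bglap reached 104 TPM in the spleen of a FL_WT mouse (mouse 08) and 58.9 TPM in the liver of a GC_WT mouse (mouse 07), where the next highest values in these organs were 16.1 and 5.26 TPM. These 2 libraries also held 226 and 87.6 TPM of the enamel gene Amelx, so that Bglap was 0.46 and 0.67 times Amelx, within the ratio of 0.295 to 1.11 in MdB. Over the 40 soft tissue libraries with at least 5 TPM of Amelx the ratio ran from 0.00963 to 1.23, beyond the range of MdB on both sides. The lowest value came from the spleen of FL_WT mouse 10, with 0.08 TPM of Bglap and 4.34 TPM of Bglap2. Bglap2 is not part of this ratio, so low values also depend on how reads were divided between both genes. In all, 16 of the 150 soft tissue libraries had at least 5 TPM of Bglap, and all 16 had at least 5 TPM of Amelx. In TpB, Amelx was between 0 and 43.0 TPM. Scaled by the median ratio of MdB (0.472), it corresponded to at most 20.3 TPM of Bglap and to at most 3.97% of the Bglap level of a TpB library. The ratio in MdB reached 1.11, so these scaled values are not upper bounds.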

How the data were processed

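RNA was sequenced as single 76-base reads from strand-specific poly(A) libraries (thymus by depletion of ribosomal RNA). Per the labels and the submitters' processing notes, the authors aligned reads to mm10 with STAR 2.6.1 and quantified genes with RSEM 1.3.1. The authors deposited an expected count and a TPM value per gene and sample for 192 samples of 9 tissues. The 192 FPKM columns were not used. Expected counts were rounded to whole numbers.

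Within each bone, edgeR 4.0.16 (R 4.3.3) was run with TMM factors, filterByExpr and 1 quasi-likelihood fit of all 4 groups, with Benjamini-Hochberg adjustment over all genes tested, and an adjusted p under 0.05 counted as a call. Bones of the same mice were compared in ground and flight mice separately, with genotype as a covariate. The mouse entered as a block only in an alternative fit. KO flight mouse 04 was left out. The results were recomputed with limma 3.58.1 after adding a pseudocount of 1 or 0.1 to TPM, and with DESeq2 1.42.0. Other fits used other scaling, no filter, mouse 04 included, fewer groups, a replicate block or library set as a covariate. Further fits used summed osteocalcin genes, library sizes without the listed erythroid, neutrophil and muscle genes, and each mouse left out. The fits were checked on simulated data. Correlations between bones used 100000 permutations, two-sided.

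Replicates were separate mice. Flight and ground mice with the same number were different animals, and the correlation of their deviations ranged from -0.481 to 0.726 in TpB. Members and gene lists were chosen with earlier results of these data known. Beyond the members, the text names per list the gene with the smallest p (the 3 smallest between bones), and the 5 genes most like the members' mean, except that some genes under this rule are not reported here. Gene positions came from GENCODE vM21, which held 99.9% of the gene IDs, and promoters from RefSeq.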

Additional observations from a re-analysis of the deposited data

Results flagged for a closer look

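Among 60 groups of samples compared, of which 52 were in temporal bone, 3 had 1 mouse far from the others of its group, and chance alone gives about 1 in 20 groups. Sp7 was 37.0 TPM in TpB of FL_WT mouse 08, and the next mouse had 23.2 TPM, a gap of 0.714 of the range of the group. Bglap was 104 TPM in the spleen of FL_WT mouse 08, where the next mouse of the group had 5.07 TPM. Bglap was 58.9 TPM in the liver of GC_WT mouse 07, where the next had 3.46 TPM. The last 2 libraries are those described above with 226 and 87.6 TPM of the enamel gene Amelx. At least 5 TPM of Amelx was found in 40 soft tissue libraries in all.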

How the results depend on the processing

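Among the 1151 alternative values computed, no fold change or correlation changed sign. Within a bone, fold changes were followed only for members with an unadjusted p under 0.05 in the main edgeR fit. The other members were not part of these values. The remaining values were counts of calls and mean levels, which have no sign. DESeq2 called 2 members for the averaged flight effect in TpB, Bglap and Bglap2, where edgeR called 0. Without FL_WT mouse 06, 1 member (Sost) was called in MdB in GC_KO against GC_WT and 1 (Sost) for the averaged genotype effect, where 0 were called otherwise. In both cases the other samples left out in turn gave 0 calls. The mean of Alpl in MdB of FL_KO was 841 TPM with mouse 04 included and 818 TPM without it. Among single genes, calls of Dmp1 and Ibsp between the bones changed as given above. In FL_WT against GC_WT of TpB, Bglap lay between -1.19 and -0.80 and Bglap2 between -1.37 and -0.94 over the alternatives, and averaged over the genotypes Bglap lay between -0.97 and -0.66 (adjusted p 0.0467 to 0.994) and Bglap2 between -1.04 and -0.78 (0.0282 to 0.994). The cause of these differences was not tested.

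With a replicate block Bglap differed by -0.99 and Bglap2 by -1.14 in WT mice of TpB, and the block changed no call within the bones. Flight and ground mice share only a number, so this block is no pairing of animals. Between the bones, where the block is the same mouse, Dmp1 differed by 1.06 (adjusted p = 0.0147) in ground mice and no call changed. Groups of 2 or 3 mice limit the MdB comparisons, and counts of 0 to 2 limit Mepe there.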
